A study of Mus musculus with 24 samples.

Results

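Kidneys of mice given the kinase inhibitor YKL-05-099 were compared directly with kidneys of mice given parathyroid hormone (PTH), gene by gene, in bulk RNA-seq of whole kidney. The 8 libraries titled for YKL-05-099 and the 8 titled for PTH, 16 of the 24 libraries of the series, were chosen by their titles, and the other 8 came from vehicle-treated mice. The deposited description gives an n of 6 for each treatment where 8 libraries a group are present, so whether each library is a separate mouse is not known, and every n, SE and p below counts libraries. All were wild-type C57BL6 mice, which the study's methods describe as 13 weeks old and male. For kidney RNA those methods have hPTH(1-34) given under the skin 1 h before collection and YKL-05-099 given into the peritoneum 3 h before collection, whereas the deposited description has every treatment given into the peritoneum; the collection time of the vehicle mice was not given in the sources used here. Agent, route and time therefore differ together, and a difference between the 2 groups cannot be assigned to any 1 of them: these cannot be told apart. YKL-05-099 is an early inhibitor of all salt-inducible kinases (SIKs) and, per the study, also acts on other kinases.

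PTH binds its receptor PTH1R on tubule cells, which raises cAMP and activates protein kinase A. Protein kinase A phosphorylates cAMP-response element binding protein (CREB) and also shuts off the SIKs, whose resting activity keeps the CREB coactivators (CRTCs) out of the nucleus. A SIK inhibitor acts at the lower of these steps and bypasses the receptor. In the proximal tubule PTH is known for turning on Cyp27b1, which makes active 1,25-vitamin D, for lowering Cyp24a1, which destroys it, and for taking phosphate transporters off the cell surface.

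The values are fragment counts scaled to transcript length and library size (FPKM). Depth was estimated from the spacing of low values at 5825000 to 7150000 fragments a library, with medians of 6787500 in the PTH group and 6550000 in the YKL-05-099 group. Although the mice are described as male, all 24 libraries carried Xist (76.3 to 114 FPKM), and Ddx3y of the Y chromosome never exceeded 0.1 FPKM. The PTH libraries fell into 2 sets by replicate number. The mean log2 level of 20 cytosolic ribosomal protein genes was 8.82 to 9 in PTH replicates 1 to 4 and 8.44 to 8.55 in PTH replicates 5 to 8, against 8.41 to 8.68 in the YKL-05-099 libraries. Counts below are therefore also given against each set of 4 alone. The 4 libraries highest in urothelium markers, called urothelium-rich here (PTH replicate 1, PTH replicate 5, YKL-05-099 replicate 2 and, among the vehicle libraries, replicate 7), were left out in a further set of lead counts.

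**Figure D1:**
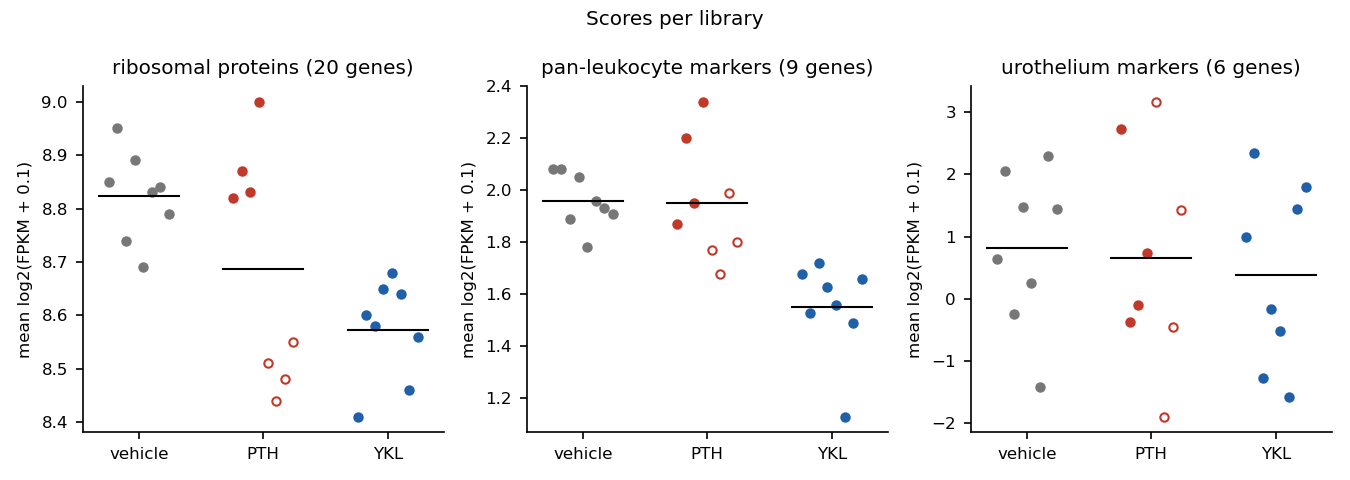
Mean log2(FPKM + 0.1) of the 20 cytosolic ribosomal protein genes, 9 pan-leukocyte markers and 6 urothelium markers in each library, by group (n = 8 each, line at the mean), with PTH replicates 1 to 4 filled and 5 to 8 open. The open PTH points sit at 8.44 to 8.55 in the ribosomal panel, within the YKL-05-099 range of 8.41 to 8.68, and the filled ones at 8.82 or above.

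Most genes did not separate the agents. Among the 13991 genes that averaged 0.5 FPKM or more, 898 (6.42%) passed an adjusted p of 0.05 in the direct comparison, by limma with Benjamini-Hochberg adjustment. With YKL-05-099, 397 genes (2.84%) were higher and 501 (3.58%) were lower than with PTH. A log2 difference of at least 1 was reached by 18 of the higher genes (0.129% of those tested) and 42 of the lower (0.3%). With 1 FPKM instead of 0.1 added before the log these were 2 and 19, and a fit of the 2 groups alone called 519 genes. In 125 genes (0.893%) the 8 libraries of one group did not overlap the 8 of the other, 49 (0.35%) with YKL-05-099 above and 76 (0.543%) with PTH above. The median log2 difference over all genes was 0.002. The 5th percentile was -0.425 and the 95th was 0.355.

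For scale, PTH differed from vehicle in 2397 genes (17.1%) and YKL-05-099 in 2481 (17.7%), 2 comparisons that share the 8 vehicle libraries. Against PTH replicates 1 to 4 alone, the calls numbered 2378 (YKL-05-099 above PTH in 946 and below it in 1432), and 714 of them were among the 898. Against PTH replicates 5 to 8 alone, 986 were called, 622 higher and 364 lower, 453 of them among the 898, so the balance of directions turned with the set of PTH libraries used. Against both sets separately, 321 of the 898 were called, 151 higher and 170 lower. Without the 4 libraries highest in urothelium markers 564 genes were called, 286 higher and 278 lower.

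**Figure D2:**
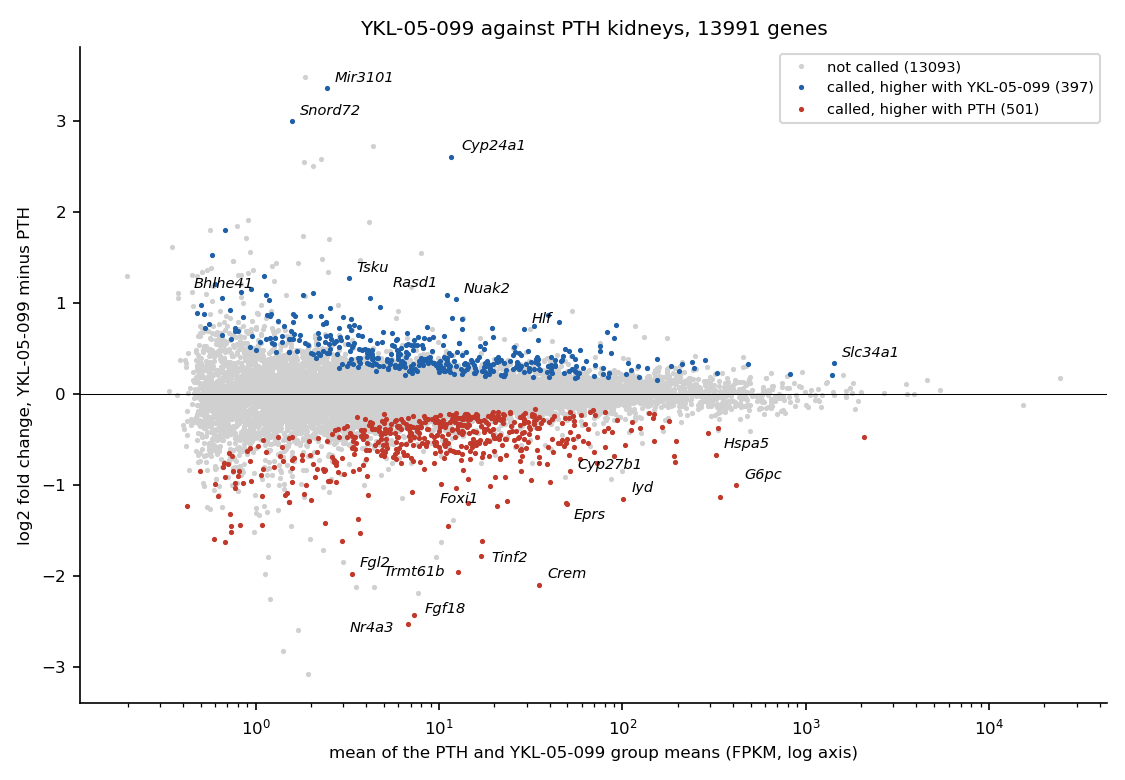
Log2 difference of YKL-05-099 minus PTH (vertical axis) against the mean of the 2 group means in FPKM (horizontal log axis), 1 point a gene. Blue points are the 397 genes called higher with YKL-05-099, red points the 501 called higher with PTH and grey points genes not called, Cyp27b1 among them; the lowest called points are Nr4a3, Fgf18 and Crem, and the highest called points are Mir3101, Snord72 and Cyp24a1.

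The promoters of genes lower with YKL-05-099 are shown first, searched for letters that CREB is known to bind. The cAMP-response element is the palindrome TGACGTCA, and its half-site is TGACG, here searched on both strands in the 250 bases before each start in the RefSeq promoter table (build GRCm38.p6), which lists more than 1 start for some genes. A palindrome counts as a half-site match on each strand. RefSeq windows were at hand for 10996 of the 13991 genes, 13974 windows in all. A half-site stood in 36.6% of the 506 windows of genes called lower with YKL-05-099, in 16.3% of the 417 windows of genes called higher and in 25.2% of all windows, and the palindrome in 6.13%, 0.719% and 2.35%. Median GC content was 61.2%, 59.6% and 59.2% in these 3 sets, with medians of 17, 13 and 15 CG pairs a window, and the part of base composition in the shares was not tested. Within the list of CREB targets given below, a half-site stood in 59.1% of 22 windows and in 50% of the 6 windows of its called members. The called members with a match were Adamts1, Nr4a3 and Rcan1, while Crem, Fgf18 and G6pc had no match or no window.

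5 windows that hold matches are printed 5′ to 3′ on the gene's strand with half-site matches in capitals. They belong to Nr4a3 (chr4:48045055-48045304, plus strand), Tinf2 (chr14:55681818-55682067, minus strand), Trmt61b (chr17:71598762-71599011, minus strand), Maff (chr15:79347270-79347519, plus strand) and Rcan1 (chr16:92400079-92400328, minus strand). Tinf2, Maff and Rcan1 hold a whole palindrome. Trmt61b, Maff and Rcan1 have other start windows, and 1 window of each had no match. The windows shown for Tinf2, Maff and Rcan1 lie within the annotated span of the gene, before an internal start, and that of Nr4a3 overlaps its first bases. A match is a description of the letters and not of binding.
Nr4a3: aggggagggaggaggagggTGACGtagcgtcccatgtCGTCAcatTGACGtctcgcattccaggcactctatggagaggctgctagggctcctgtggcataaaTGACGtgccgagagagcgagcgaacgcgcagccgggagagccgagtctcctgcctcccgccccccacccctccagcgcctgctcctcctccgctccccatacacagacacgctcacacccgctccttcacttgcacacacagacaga
Tinf2: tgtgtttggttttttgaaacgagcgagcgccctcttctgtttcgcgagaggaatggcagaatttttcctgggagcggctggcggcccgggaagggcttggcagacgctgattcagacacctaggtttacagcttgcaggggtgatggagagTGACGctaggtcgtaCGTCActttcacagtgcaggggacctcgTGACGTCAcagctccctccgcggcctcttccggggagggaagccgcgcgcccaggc
Trmt61b: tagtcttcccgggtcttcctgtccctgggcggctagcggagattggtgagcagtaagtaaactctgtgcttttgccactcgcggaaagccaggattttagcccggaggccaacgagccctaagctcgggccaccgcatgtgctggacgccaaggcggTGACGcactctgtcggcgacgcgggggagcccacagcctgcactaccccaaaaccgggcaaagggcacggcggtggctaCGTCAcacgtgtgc
Maff: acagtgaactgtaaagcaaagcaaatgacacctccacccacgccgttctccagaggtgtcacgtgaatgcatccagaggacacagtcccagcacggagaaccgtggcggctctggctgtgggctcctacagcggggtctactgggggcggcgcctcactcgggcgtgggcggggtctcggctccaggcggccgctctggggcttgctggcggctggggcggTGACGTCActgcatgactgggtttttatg
Rcan1: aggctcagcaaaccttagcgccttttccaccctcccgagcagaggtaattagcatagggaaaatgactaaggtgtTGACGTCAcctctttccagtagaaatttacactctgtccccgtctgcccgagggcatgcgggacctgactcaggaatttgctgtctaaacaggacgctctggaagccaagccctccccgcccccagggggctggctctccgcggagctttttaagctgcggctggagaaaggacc

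Among vitamin D genes the agents differed in Cyp24a1. Cyp24a1 (24-hydroxylase, chromosome 2, 170482957 to 170497145 on GRCm38.p6) was at 0.73, 3.31 and 6.04 FPKM (lowest, median and highest) with PTH, at 10.2, 19.2 and 30.2 with YKL-05-099, and at 20.3, 38.9 and 172 with vehicle. Every YKL-05-099 library lay above every PTH library. The log2 difference was 2.61 (SE 0.397, adjusted p = 1.46e-04). Against vehicle Cyp24a1 fell by 3.83 on the log2 scale with PTH (adjusted p = 1.3e-07) and by 1.23 with YKL-05-099 (adjusted p = 0.0331).

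Cyp27b1 (1-alpha-hydroxylase, chromosome 10, 127048246 to 127054884) was at 29.8, 57.1 and 142 FPKM with PTH and at 11.9, 29.9 and 62.5 with YKL-05-099. The groups overlapped, although both stood above the vehicle libraries, which reached 7.05 at most. The means were 63.3 ± 35.5 and 33.5 ± 16.3 (SD, n = 8 each), a log2 difference of -0.91 (SE 0.299) that did not pass the test (adjusted p = 0.0677). It passed when PTH replicate 1, PTH replicate 7 or YKL-05-099 replicate 7 was left out, at -1.06 to -1.02 (adjusted p = 0.0326 to 0.0429). Against vehicle Cyp27b1 rose by 3.64 with PTH and by 2.73 with YKL-05-099 on the log2 scale.

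Of 13 vitamin D genes, 2 were called, both higher with YKL-05-099, against 6.42% of all genes, with a median log2 difference of 0.087 against 0.002 over all genes. The other called gene was Dhcr7, which returns the vitamin D precursor 7-dehydrocholesterol to the cholesterol pathway. It was at 3.35, 4.76 and 5.69 FPKM with PTH and 5.99, 6.56 and 7.68 with YKL-05-099, without overlap (0.53, SE 0.12, adjusted p = 0.0073). Vdr, the receptor of active vitamin D, was at medians of 81.4 and 96.6 FPKM (0.18, adjusted p = 0.206). Against PTH replicates 1 to 4 alone Vdr passed (0.37, adjusted p = 0.0019). The list then had 6 members higher and 1 lower (946 and 1432 of all 13991 genes were). Against replicates 5 to 8 it had 2 higher and 0 lower (622 and 364).

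**Figure D3:**
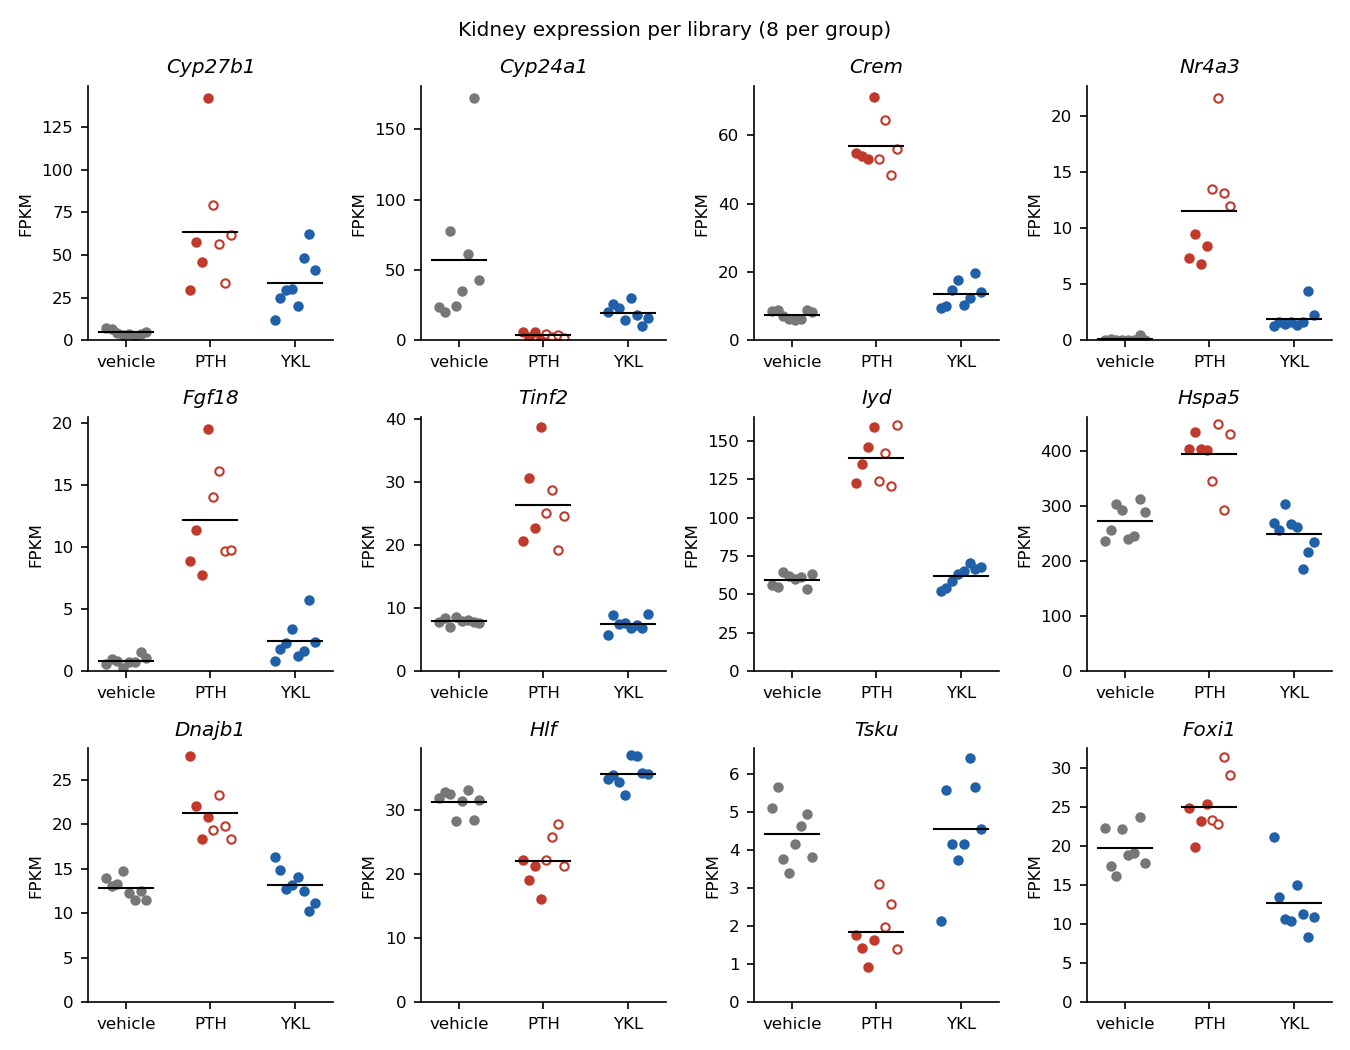
FPKM in every library for 12 genes, each panel with its own linear axis from 0, the vehicle, PTH and YKL-05-099 groups side by side (n = 8 each) and the group mean as a black line; PTH replicates 1 to 4 are filled circles and 5 to 8 open circles. Crem, Nr4a3, Fgf18, Tinf2 and Iyd in YKL-05-099 libraries lie below every PTH library, Cyp24a1 and Hlf lie above every PTH library, and Cyp27b1 overlaps.

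The genes of the signalling pathway itself differed little. Of 26 genes of the PTH receptor, cAMP and protein kinase A machinery, 1 was called (background 6.42%), with a median of 0.007. This was Prkar1a, a regulatory subunit that holds protein kinase A inactive, at 70, 73.1 and 77.8 FPKM with PTH and 56.1, 64.1 and 71.9 with YKL-05-099. The groups overlapped slightly (-0.18, adjusted p = 0.0257), and the call was lost without PTH replicate 2 or YKL-05-099 replicate 2 or 6 (-0.17 to -0.15, adjusted p = 0.0524 to 0.0624), against PTH replicates 5 to 8 alone (-0.17, adjusted p = 0.0721) and without the urothelium-rich libraries (-0.17, adjusted p = 0.118). Pth1r, the receptor, had medians of 133 and 143 FPKM (0.13, adjusted p = 0.163).

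Sik1, a SIK gene that is itself a CREB target, was at 34.5, 53.8 and 93.8 FPKM with PTH and 26.2, 66.5 and 77.7 with YKL-05-099, against 22.1 to 25.6 with vehicle. The 2 treated groups overlapped throughout (0.11, SE 0.203, adjusted p = 0.845). Sik2 was at 5.93, 9.95 and 13.1 FPKM with PTH and 3.98, 6.8 and 9.78 with YKL-05-099 and was called lower (-0.57, adjusted p = 0.0419). This call was lost without PTH replicate 1, 2, 4, 5, 7 or 8 or YKL-05-099 replicate 4, 5, 6 or 8 (-0.58 to -0.47, adjusted p = 0.0579 to 0.0995) and against PTH replicates 1 to 4 alone (-0.45, adjusted p = 0.141).

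Sik3 (0.09, adjusted p = 0.706) did not pass, nor did the CREB coactivators Crtc1 (0.31, adjusted p = 0.171), Crtc2 (-0.004, adjusted p = 0.988) and Crtc3 (-0.15, adjusted p = 0.6). Against PTH replicates 1 to 4 alone Sik3 (0.33, adjusted p = 0.0399) and Crtc1 (0.53, adjusted p = 0.0227) passed. The transcription factor Mef2d, whose family is held back by histone deacetylases that SIKs phosphorylate, was at 24.1, 32.2 and 36.1 FPKM with PTH and 18.2, 23.1 and 27.5 with YKL-05-099, against a vehicle median of 15.5. It was lower with YKL-05-099 (-0.48, SE 0.0887, adjusted p = 0.0012). Mef2d and Sik2 were the 2 called genes of 19 in the SIK, CRTC, HDAC and MEF2 list (background 6.42%, or 3.58% lower), whose median was -0.006.

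Several CREB target genes were lower with YKL-05-099 than with PTH. Of 20 tested, 6 were called, all lower with YKL-05-099 (3.58% of all genes were). In 5 of the 20 every PTH library was above every YKL-05-099 library, against 0.543% of all genes. The list median was -0.356, and this list, like the others, was written with earlier results of these data known. Against vehicle, 17 of the 20 were called higher with PTH (6% of all genes were) and 16 with YKL-05-099 (6.26%), so most members were raised by each agent in its own comparison. Against PTH replicates 1 to 4 alone 2 were higher and 6 lower (946 and 1432 of all 13991 genes were). Against replicates 5 to 8 the counts were 0 and 5 (622 and 364).

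Crem makes the cAMP-inducible repressor ICER, which feeds back on CREB. It was at 48.5, 54.4 and 71.2 FPKM with PTH and 9.51, 13.2 and 19.7 with YKL-05-099, and at 6.03 to 9 with vehicle. The lowest PTH library was above the highest YKL-05-099 library, and the lowest YKL-05-099 library was above the highest vehicle library. The log2 difference was -2.10 (SE 0.131, adjusted p = 3.2e-11).

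Nr4a3, an orphan nuclear receptor known as an early cAMP target, was at 7.32, 9.48, 6.78 and 8.41 FPKM in PTH replicates 1 to 4 and 13.5, 21.6, 13.2 and 11.9 in replicates 5 to 8. In YKL-05-099 replicates 1 to 8 it was at 1.27, 1.6, 1.43, 1.6, 1.38, 1.6, 4.38 and 2.25, and in vehicle at 0.52 at most. All PTH libraries were above all YKL-05-099 libraries, and the first 4 PTH libraries were below the other 4. The log2 difference was -2.53 (SE 0.328, adjusted p = 1.93e-05). Its promoter holds 4 half-site matches, shown above.

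Fgf18, a fibroblast growth factor, was at 7.73, 10.6 and 19.5 FPKM with PTH and 0.83, 2.04 and 5.74 with YKL-05-099, again without overlap (-2.43, adjusted p = 1.19e-05). G6pc, the last enzyme of glucose production, was at 440, 541 and 681 FPKM with PTH and 173, 292 and 325 with YKL-05-099 (-1.005, adjusted p = 1.33e-05). Adamts1, a secreted protease, was at 21.8, 23.7 and 38.1 against 9.99, 14.1 and 16.8 FPKM (-0.92, adjusted p = 1.19e-05). In these 3 genes the groups did not overlap, and each was also above vehicle with YKL-05-099, by 1.29, 0.39 and 0.87 on the log2 scale. Rcan1, an inhibitor of calcineurin, overlapped at 151 to 326 FPKM with PTH and 78.7 to 239 with YKL-05-099 (-0.75, adjusted p = 0.0207). The Rcan1 call was lost against PTH replicates 5 to 8 alone (-0.73, adjusted p = 0.079), without the urothelium-rich libraries (-0.69, adjusted p = 0.0531) and with array weights (-0.62, adjusted p = 0.0684).

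The first wave of growth-signal genes was raised against vehicle by each agent, and some members differed between the agents. Of 19 immediate early genes, 14 were called higher than vehicle with PTH (6% of all genes were) and 16 with YKL-05-099 (6.26%). In the direct comparison 4 were called, all lower with YKL-05-099 (background 3.58%), while the list median was 0.128, on the other side of 0. The 4 were Maff, Fosl2, Srf and Ier5. Against PTH replicates 1 to 4 alone 1 was higher and 4 lower (946 and 1432 of all 13991 genes were). Against replicates 5 to 8 the counts were 0 and 2 (622 and 364).

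Maff, a small bZIP factor, was at 15.8, 20.5 and 60.6 FPKM with PTH and 2.75, 8.79 and 12.1 with YKL-05-099, without overlap (-1.62, SE 0.288, adjusted p = 7.91e-04). Fosl2, a partner of JUN in AP-1, overlapped at 13.2 to 51.1 and 4.95 to 23.1 FPKM (-1.23, adjusted p = 0.00544). Srf (-0.27, adjusted p = 0.0358) encodes the factor that drives many immediate early genes, and its call was lost without PTH replicate 4, 5 or 7 or YKL-05-099 replicate 2, 3, 5, 6, 7 or 8 (-0.27 to -0.23, adjusted p = 0.0504 to 0.0776), against either set of 4 PTH libraries (-0.25 and -0.28, adjusted p = 0.0809 and 0.0607) and without the urothelium-rich libraries (-0.26, adjusted p = 0.102). Ier5 (-0.39, adjusted p = 0.0405) lost its call without PTH replicate 1, 2, 3, 4, 6 or 8 or YKL-05-099 replicate 3, 4, 5, 6 or 7 (-0.41 to -0.34, adjusted p = 0.0524 to 0.0965) and against PTH replicates 5 to 8 alone (-0.27, adjusted p = 0.241).

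Kruppel-like factors and phosphatases of the MAP kinases followed with single genes. Klf2, a flow-responsive endothelial factor, was at 13.8, 15.8 and 22.9 FPKM with PTH and 8.91, 10.9 and 13.2 with YKL-05-099, without overlap (-0.58, adjusted p = 0.00229). Klf4 was lower too (-0.59, adjusted p = 0.00237), and Klf11 was higher with YKL-05-099 (0.48, adjusted p = 0.00577). With Klf6 (-0.24, adjusted p = 0.0426) these were 4 of 14 tested Kruppel-like factors, 1 higher and 3 lower (backgrounds 2.84% and 3.58%), with a median of 0.239. The list had 6 higher and 2 lower against PTH replicates 1 to 4 alone (946 and 1432 of all 13991 genes were). Against replicates 5 to 8 it had 1 and 2 (622 and 364). The Klf6 call was lost without PTH replicate 1, 2, 6, 7 or 8 or YKL-05-099 replicate 1, 3, 6, 7 or 8 (-0.25 to -0.21, adjusted p = 0.0528 to 0.0874) and against PTH replicates 1 to 4 (-0.21, adjusted p = 0.102) or 5 to 8 (-0.28, adjusted p = 0.0621). Dusp14, a dual-specificity phosphatase, was at 13, 17.9 and 32.4 FPKM with PTH and 7.54, 10.1 and 11.2 with YKL-05-099, without overlap (-0.94, adjusted p = 1.16e-04).

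Several genes stood well above vehicle with PTH and in or near the vehicle range with YKL-05-099. Tinf2 encodes a protein of shelterin, the complex that caps telomeres. It was at 19.2, 24.9 and 38.7 FPKM with PTH, 5.73, 7.46 and 9.04 with YKL-05-099 and 6.98, 7.97 and 8.64 with vehicle. The YKL-05-099 libraries overlapped the vehicle libraries and lay below all PTH libraries (-1.78, SE 0.111, adjusted p = 3.2e-11). Its promoter, printed above, holds a palindrome and 4 half-site matches in all.

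Iyd, an iodotyrosine deiodinase that recovers iodide, had the same adjusted p as Crem and Tinf2, the smallest of all genes. It was at 121, 138 and 160 FPKM with PTH, 52.3, 64.2 and 70.3 with YKL-05-099 and 53.8, 60.6 and 64.5 with vehicle (-1.15, SE 0.0711). Trmt61b, named for a mitochondrial tRNA methyltransferase but annotated here as a long noncoding RNA gene, was at 13.4, 21.6 and 23.9 FPKM with PTH and 3.25, 5.58 and 6.9 with YKL-05-099 (-1.95, adjusted p = 2.47e-09). Fgl2, a fibrinogen-like protein, was at 2.57, 4.12 and 14.6 against 0.51, 1.25 and 1.4 FPKM (-1.97, adjusted p = 1.19e-05). In these 3 genes no YKL-05-099 library reached a PTH library, and the YKL-05-099 minus vehicle difference did not pass (0.06, 0.40 and -0.25).

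Other genes among the 10 smallest adjusted p-values were of mixed function. Eprs, which charges tRNA with glutamate and proline, was at 57.5, 67.8 and 82.7 FPKM with PTH and 24.9, 29.8 and 34.5 with YKL-05-099 (-1.19, adjusted p = 3.86e-11). Impact, known to restrain the stress kinase GCN2, was at 25.4, 34.4 and 37.6 against 11.3, 14.7 and 17.4 FPKM (-1.18, adjusted p = 9.41e-09). The groups did not overlap in either gene. Nmd3, an export adaptor of the large ribosomal subunit (-0.94, adjusted p = 1.4e-07), Ell2, an elongation factor of RNA polymerase II (-1.21, adjusted p = 4.06e-07), Erlin1, a scaffold of the endoplasmic reticulum (-0.57, adjusted p = 1.35e-06), and Dos (-1.45, adjusted p = 1.79e-06) also had no overlap. With YKL-05-099 Nmd3, Eprs, Impact and Erlin1 did not pass against vehicle, while Ell2 (0.35) and Dos (0.54) did. Among the 15 lowest differences were also Fndc4 (1.96, 4.58 and 7.69 against 1.01, 1.3 and 2.01 FPKM, -1.62, adjusted p = 1.19e-05) and Spdya, an activator of cyclin-dependent kinases (2.21, 5.46 and 8.14 against 0.9, 1.94 and 2.5 FPKM, -1.53, adjusted p = 1.67e-04), and in both the groups overlapped at the edge. The annotated span of Spdya (chromosome 17, 71526895 to 71589533) overlaps that of Trmt61b (71557027 to 71598761), and whether they share fragments was not tested.

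**Figure D4:**
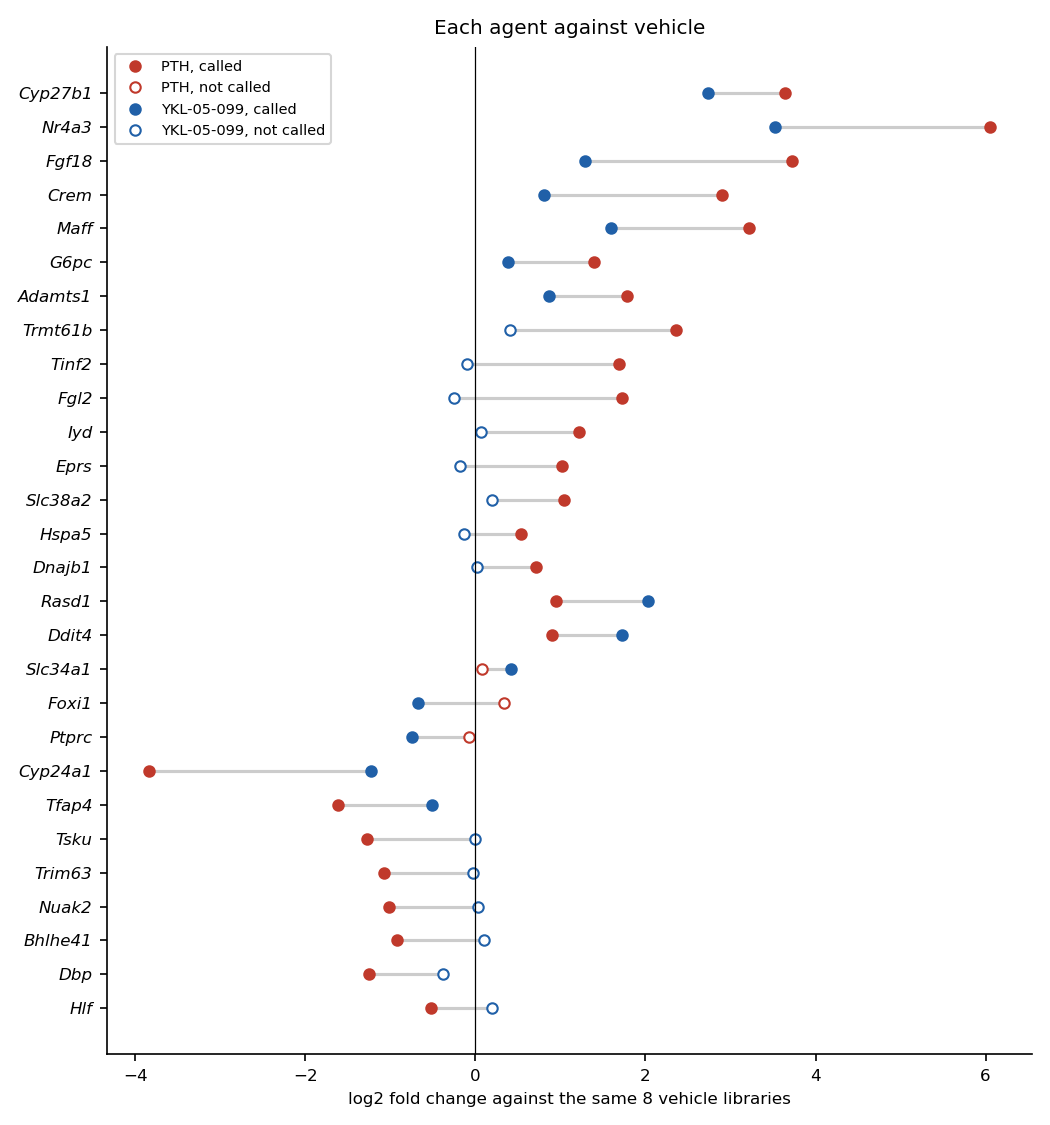
Log2 difference from vehicle for named genes with PTH and with YKL-05-099, both from the same fit and sharing the 8 vehicle libraries; filled points passed an adjusted p of 0.05 and open points did not. Tinf2 stood 1.69 above vehicle with PTH and at -0.09 with YKL-05-099, and Crem stood at 2.90 and 0.80.

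A number of chaperones of the endoplasmic reticulum and the cytosol were lower with YKL-05-099 than with PTH. The unfolded protein response raises folding proteins of the endoplasmic reticulum through ATF6, XBP1 and PERK, and the heat shock response does so in the cytosol through HSF1. Of 16 unfolded protein response genes, 10 were called, all lower with YKL-05-099 (background 3.58%), with a median of -0.347 against 0.002 over all genes. Against vehicle, 9 were called with PTH, all higher (6% of all genes were), and 0 with YKL-05-099 (17.7% of all genes were called). The count was 11 lower against PTH replicates 1 to 4 (1432 of all 13991 genes were). It was 9 against replicates 5 to 8 (364) and 9 without the libraries highest in urothelium markers (278), with 0 higher each time.

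Hspa5, the chief chaperone of the endoplasmic reticulum (BiP), was at 293, 404 and 448 FPKM with PTH, 185, 258 and 303 with YKL-05-099 and 236, 273 and 313 with vehicle. The treated groups overlapped only at the edge (-0.67, SE 0.0946, adjusted p = 6.34e-05). Dnajb9, a co-chaperone of BiP, was at 50.8, 68.3 and 79.8 against 34.7, 44.8 and 48.3 FPKM, without overlap (-0.58, adjusted p = 4.24e-05). Xbp1, the factor spliced in this response, was at 59.3, 71.6 and 91.5 against 41.2, 49.6 and 61.5 FPKM (-0.51, adjusted p = 4.7e-04). Creld2, a secreted folding helper, was at 29.1, 37.9 and 76 against 24.4, 26.1 and 29.4 FPKM (-0.62, adjusted p = 0.00296). In both Xbp1 and Creld2 the groups overlapped at the edge.

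ATF6 is known to act at the endoplasmic reticulum stress element, CCAAT and CCACG set 9 bases apart, searched on both strands. It stood in 6 of the 13 windows of the unfolded protein response list (46.2%), in 3 of the 8 windows of its called members and in 0.136% of all windows. The windows of Hspa5 (chr2:34771840-34772089, plus strand) and Creld2 (chr15:88819396-88819645, plus strand, match on the other strand) are shown with the element in capitals.
Hspa5: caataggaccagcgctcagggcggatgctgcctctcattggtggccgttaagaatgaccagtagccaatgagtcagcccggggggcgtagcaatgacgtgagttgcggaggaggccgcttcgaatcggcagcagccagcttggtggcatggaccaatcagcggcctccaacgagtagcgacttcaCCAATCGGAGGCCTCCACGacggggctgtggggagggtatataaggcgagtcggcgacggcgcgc
Creld2: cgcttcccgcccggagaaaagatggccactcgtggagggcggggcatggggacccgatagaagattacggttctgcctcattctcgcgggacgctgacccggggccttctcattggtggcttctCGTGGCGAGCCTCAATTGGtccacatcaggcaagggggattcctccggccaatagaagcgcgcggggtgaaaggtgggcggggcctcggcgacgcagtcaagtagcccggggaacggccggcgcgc

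Of 15 heat shock chaperones, 6 were called, all lower with YKL-05-099 (background 3.58%), and the list median was -0.381. Against vehicle, 3 were higher and 0 lower with PTH (6% and 11.1% of all genes were). With YKL-05-099 0 were higher and 2 lower than vehicle (6.26% and 11.5%). The list medians against vehicle were 0.261 with PTH and -0.170 with YKL-05-099. Dnajb1, the inducible partner of HSP70, was at 18.4, 20.4 and 27.7 FPKM with PTH, 10.3, 12.9 and 16.4 with YKL-05-099 and 11.5, 12.8 and 14.7 with vehicle. Every PTH library was above every library of the other 2 groups (-0.69, SE 0.0903, adjusted p = 2.04e-05). Hspa8, the constitutive HSP70, was at 1966, 2447 and 2846 FPKM with PTH and 1519, 1786 and 1845 with YKL-05-099, without overlap (-0.47, adjusted p = 1.87e-04). Against vehicle Hspa8 stood at 0.26 with PTH (adjusted p = 0.0152) and at -0.21 with YKL-05-099 (adjusted p = 0.0464). Dnaja1 and Chordc1, co-chaperones of HSP70 and HSP90, were lower by smaller amounts (-0.41 and -0.49, adjusted p = 0.00451 each). The list had 7 lower against PTH replicates 1 to 4 (1432 of all 13991 genes were) and 5 against replicates 5 to 8 (364). No called member held the heat shock element (GAA, TTC and GAA with gaps of 2 bases) in its 8 windows, and 0.408% of all windows did.

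Some clock genes were higher with YKL-05-099 than with PTH. The core clock drives the PAR-bZIP factors Dbp, Tef and Hlf and the repressors Bhlhe41 and Nr1d1 through E-boxes, and these levels follow the hour of the day. Of 21 clock genes, 7 passed as higher and 1 as lower under YKL-05-099 (backgrounds 2.84% and 3.58%), with a median of 0.051. The counts were 4 and 1 against PTH replicates 1 to 4 (946 and 1432 of all 13991 genes) and 5 and 2 against replicates 5 to 8 (622 and 364). Against vehicle 7 were higher and 7 lower with PTH (6% and 11.1% of all genes were), and 4 higher and 1 lower with YKL-05-099 (6.26% and 11.5%). The hour of collection was not given in the sources used here, and clock time, agent and interval after dosing cannot be told apart.

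Hlf was at 16.2, 21.8 and 27.9 FPKM with PTH, 32.4, 35.6 and 38.6 with YKL-05-099 and 28.3, 31.8 and 33.2 with vehicle. All YKL-05-099 libraries were above all PTH libraries (0.71, SE 0.0776, adjusted p = 1.79e-06). Tef (42.2, 45.1 and 50.8 against 55.1, 58.2 and 75.1 FPKM) differed by 0.41 (adjusted p = 4.22e-04), and Bhlhe41 (0.48, 0.8 and 0.9 against 1.06, 1.66 and 2.18 FPKM) by 1.03 (adjusted p = 2.19e-04). Neither gene overlapped. Dbp overlapped, at 15.2 to 47.1 with PTH and 32 to 78.8 FPKM with YKL-05-099 (0.87, adjusted p = 0.00577). It was not called against PTH replicates 1 to 4 alone (0.48, adjusted p = 0.102). Tef, Bhlhe41 and Dbp were called below vehicle with PTH (-0.47, -0.93 and -1.25). With YKL-05-099 their differences from vehicle (-0.05, 0.10 and -0.38) did not pass.

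Arntl, the activator of this loop (BMAL1), was lower with YKL-05-099, at 2.42, 2.83 and 4.17 FPKM with PTH and 0.86, 1.71 and 3.21 with YKL-05-099 (-0.84, adjusted p = 0.0172). Its call was lost against PTH replicates 5 to 8 alone (-0.79, adjusted p = 0.0796) and without the urothelium-rich libraries (-0.85, adjusted p = 0.0643). Per3 (0.54, adjusted p = 0.0113) and Nr1d1 (0.40, adjusted p = 0.0115) were among the higher genes. Per3 was called below vehicle with PTH (-0.68) and not with YKL-05-099 (-0.14), and Nr1d1 was below vehicle with both (-0.85 and -0.44). Per3 was not called against PTH replicates 1 to 4 alone (0.33, adjusted p = 0.129), nor Nr1d1 against replicates 5 to 8 (0.35, adjusted p = 0.0792). The E-box CACGTG stood in 3 of the 9 windows of called clock genes (33.3%) and in 7.99% of all windows. Those 3 windows belonged to Bhlhe41 and Tef alone, and the whole clock list held it in 5 of 25 windows (20%). The Bhlhe41 window (chr6:145865421-145865670, minus strand) is printed with its E-box in capitals.
Bhlhe41: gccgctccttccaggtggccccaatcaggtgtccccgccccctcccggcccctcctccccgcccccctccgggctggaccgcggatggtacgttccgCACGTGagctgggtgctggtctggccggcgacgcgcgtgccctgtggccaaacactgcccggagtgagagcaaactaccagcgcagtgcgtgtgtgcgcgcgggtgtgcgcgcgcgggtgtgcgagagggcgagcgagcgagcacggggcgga

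Among the largest differences in favor of YKL-05-099 several genes were low with PTH. Tsku, a secreted leucine-rich protein, was at 0.92, 1.7 and 3.1 FPKM with PTH, 2.14, 4.36 and 6.41 with YKL-05-099 and 3.39, 4.39 and 5.66 with vehicle. The treated groups overlapped (1.27, SE 0.202, adjusted p = 2.19e-04). Nuak2, an AMPK-related kinase (1.04), Trim63, a ubiquitin ligase of muscle wasting (1.05), Tfap4, a helix-loop-helix factor (1.10), and Ccdc166 (1.08) were also lowest with PTH by mean, with adjusted p of 9.28e-04, 2.34e-04, 7.22e-05 and 2.55e-05. In each of these 5 genes the PTH minus vehicle difference passed, at -1.62 to -0.78.

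Rasd1, a glucocorticoid-inducible small GTPase, differed in another way. It was at 4.77, 5.6 and 10.2 FPKM with PTH and 4.85, 16.3 and 22 with YKL-05-099, against a vehicle median of 3.29 (1.08, SE 0.255, adjusted p = 0.00995). Ddit4, an inhibitor of mTORC1 induced by stress and glucocorticoids, was at 6.54, 8.96 and 13.2 against 7.48, 19.1 and 23.6 FPKM (0.83, adjusted p = 0.00819). Both were above vehicle with each agent and overlapped between the agents. Ddit4 was the only called gene of 17 in the glucocorticoid list (background 2.84% higher), whose median was 0.283. The Rasd1 call was lost without the libraries highest in urothelium markers (1.00, adjusted p = 0.0577), and the Ddit4 call against PTH replicates 5 to 8 alone (0.77, adjusted p = 0.0606). The p53-responsive genes Sesn1 (0.62, adjusted p = 2.19e-04) and Trp53inp1 (0.74, adjusted p = 2.24e-04) were the 2 called of 19 (background 2.84% higher). Unlike Rasd1 and Ddit4, Sesn1 and Trp53inp1 were called below vehicle with PTH (-0.63 and -0.55). Their YKL-05-099 minus vehicle differences (-0.01 and 0.19) did not pass.

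2 small RNA genes headed the list by fitted difference and are given as listed values. Snord72, a small nucleolar RNA, was listed at 0 in all 8 PTH and all 8 vehicle libraries and in 4 of 8 YKL-05-099 libraries, with 6.81 FPKM at most. Mir3101, a microRNA gene, was listed at 0 in 6 PTH libraries and 1 YKL-05-099 library and reached 5.6 and 8.2 FPKM. Both entries rest on few fragments, and their calls (adjusted p = 0.0425 and 0.0463) were lost under 19 and 21 of 29 alternatives.

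Single transporter genes differed between the agents, in both directions. Slc34a1, the main sodium-phosphate cotransporter of the proximal tubule (NPT2A), was at 954, 1294 and 1451 FPKM with PTH, 1352, 1503 and 2154 with YKL-05-099 and 1000 to 1297 with vehicle. The groups overlapped (0.34, SE 0.0927, adjusted p = 0.0267), and the call was lost without PTH replicate 1 or 3 or YKL-05-099 replicate 6 or 7 (0.27 to 0.32, adjusted p = 0.052 to 0.06) and against PTH replicates 5 to 8 alone (0.24, adjusted p = 0.133) and without the urothelium-rich libraries (0.34, adjusted p = 0.0761). Slc20a1, a phosphate importer found in most cells, was at 28.9, 52.2 and 82.2 against 13, 28.3 and 33.4 FPKM (-0.97, adjusted p = 7.75e-04). Slc9a3r2, the scaffold NHERF2, was at medians of 31.6 and 22 FPKM (-0.47, adjusted p = 0.0052) and was not called against PTH replicates 5 to 8 alone (-0.28, adjusted p = 0.118). These were the 3 called of 9 phosphate transport genes, 1 higher and 2 lower (backgrounds 2.84% and 3.58%). Among 15 calcium and magnesium transport genes 0 were called, and among 18 sodium and water genes 1 (background 6.42%). This was Atp1b1, a subunit of the sodium pump (0.21, adjusted p = 0.017), whose call was lost against PTH replicates 5 to 8 alone (0.13, adjusted p = 0.16) and without the urothelium-rich libraries (0.20, adjusted p = 0.073).

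Of 14 amino acid transporters, 2 were higher and 2 lower (backgrounds 2.84% and 3.58%). Slc16a10, an aromatic amino acid carrier, was at 27.8, 33.4 and 41.2 FPKM with PTH and 19.8, 21.5 and 24.8 with YKL-05-099, without overlap (-0.61, adjusted p = 7.21e-06). Slc38a2, a neutral amino acid importer, was at 30.7, 34 and 45.6 against 14.2, 19.6 and 31 FPKM, overlapping through YKL-05-099 replicate 1 (-0.84, adjusted p = 1.74e-05). Slc7a8, an exchanger of the basolateral membrane, was at 61.8, 68.6 and 91.6 against 90.3, 96.7 and 116 FPKM (0.45, adjusted p = 3.44e-04). Slc6a19, the luminal neutral amino acid transporter, was at medians of 64.1 and 106 FPKM (0.62, adjusted p = 0.00767) and was not called against PTH replicates 5 to 8 alone (0.29, adjusted p = 0.174).

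Genes of the integrated stress response, which shares PERK with the unfolded protein response, were mixed. Of 19, Ddit4 was higher and Ddit3 (CHOP, -0.69, adjusted p = 0.0381) and Atf4 (-0.37, adjusted p = 0.0463) were lower (backgrounds 2.84% and 3.58%), with a median of 0.014. The Ddit3 call was lost without PTH replicate 1, 2, 3, 4 or 5 or YKL-05-099 replicate 1, 3, 4, 6, 7 or 8 (-0.72 to -0.57, adjusted p = 0.0507 to 0.0739) and against PTH replicates 5 to 8 alone (-0.39, adjusted p = 0.306). The Atf4 call was lost without PTH replicate 1, 2, 3, 4 or 5 or YKL-05-099 replicate 1, 2, 3, 4, 5, 7 or 8 (-0.39 to -0.29, adjusted p = 0.0512 to 0.0955), against PTH replicates 5 to 8 alone (-0.16, adjusted p = 0.389) and without the urothelium-rich libraries (-0.37, adjusted p = 0.138). Ppara, the receptor that drives fatty acid oxidation, was at 16.5, 20.6 and 27.9 FPKM with PTH and 27.1, 29.4 and 34.9 with YKL-05-099 (0.46, adjusted p = 0.00182). It was not called against PTH replicates 5 to 8 alone (0.30, adjusted p = 0.0507). Ppara was called below vehicle with PTH (-0.47) and not with YKL-05-099 (-0.02). Of the 20 genes in the list of PPAR-alpha and fatty acid oxidation, Ppara alone was called higher and 1 other was called lower. The backgrounds were 2.84% and 3.58%, and the list median was 0.037.

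Some immune, vascular and interferon genes were lower with YKL-05-099, and how many depended on which PTH libraries were used. Of 19 interferon-stimulated and MHC class I genes, 3 were called, all lower (background 3.58%, median -0.398). Lower calls numbered 10 against PTH replicates 1 to 4, 1 against replicates 5 to 8 and 1 without the urothelium-rich libraries. Over all 13991 genes the lower calls also varied, at 1432, 364 and 278. Irf9, part of the interferon-activated complex ISGF3, was at 11.2, 12.6 and 14.4 FPKM with PTH and 6.27, 9.06 and 10.2 with YKL-05-099, without overlap (-0.55, adjusted p = 6.26e-04). Rsad2, an antiviral enzyme, followed (-0.71, adjusted p = 0.0208), as did Irf1 (-0.53, adjusted p = 0.0369), whose call was lost without PTH replicate 1, 3, 4 or 7 or YKL-05-099 replicate 2, 6 or 7 (-0.52 to -0.43, adjusted p = 0.0581 to 0.0876). Against PTH replicates 5 to 8 alone neither Rsad2 (-0.53, adjusted p = 0.167) nor Irf1 (-0.36, adjusted p = 0.236) was called, nor without the urothelium-rich libraries (-0.72 and -0.44, adjusted p = 0.0588 and 0.171). Compared with vehicle, 1 of the 19 was lower with PTH (11.1% of all genes were) and 11 with YKL-05-099 (11.5%).

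Of the NF-kB list of 14, 1 was called higher and 2 lower (backgrounds 2.84% and 3.58%). Vcam1, a leukocyte adhesion molecule, was at 4.06, 4.54 and 6.14 FPKM with PTH and 2.11, 3.21 and 3.92 with YKL-05-099, without overlap (-0.62, adjusted p = 0.00186), and was not called against PTH replicates 5 to 8 alone (-0.46, adjusted p = 0.0509). Cxcl10, a chemokine, was lower too (-0.86, adjusted p = 0.00395), and Tnfaip3, which shuts off NF-kB, was higher (0.67, adjusted p = 0.0101). Ctgf, a target of YAP and TGF-beta, was at 40.9, 45.7 and 64.7 against 20, 26.6 and 44 FPKM (-0.77, adjusted p = 6.26e-04). The groups overlapped in Cxcl10, Tnfaip3 and Ctgf.

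Cell type markers moved alongside. In whole kidney, fewer cells of a type and less RNA per cell cannot be told apart. Of 9 pan-leukocyte markers 3 were lower with YKL-05-099 and 0 higher (backgrounds 3.58% and 2.84%), with a median of -0.508. The mean log2 level of the 9 was 1.68 to 2.34 with PTH, 1.13 to 1.72 with YKL-05-099 and 1.78 to 2.08 with vehicle. Ptprc (CD45) was at 1.84, 2.33 and 3.24 against 1.18, 1.38 and 2.32 FPKM (-0.67, adjusted p = 0.00393). Of 7 macrophage markers 2 were lower (median -0.418) and of 8 endothelial markers 2 (median -0.453), against the same background. Against PTH replicates 5 to 8 alone none of these 3 lists had a call in either direction (364 of all 13991 genes were lower and 622 higher). Against replicates 1 to 4 they had 4, 5 and 3 lower and 1, 0 and 0 higher (1432 and 946). Without the libraries highest in urothelium markers they had 4, 0 and 0 lower (278). Their part in the immune and interferon differences was not tested.

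The other called leukocyte markers were Lcp1 (-0.31, adjusted p = 0.0215), lost without YKL-05-099 replicate 6 (-0.25, adjusted p = 0.0507), and Coro1a (-0.75, adjusted p = 0.0337), lost without PTH replicate 2 or 3 or YKL-05-099 replicate 2, 6 or 7 (-0.74 to -0.68, adjusted p = 0.0542 to 0.0728). Both encode proteins that bind actin in blood cells. The macrophage genes were C1qc, a chain of complement C1q, at 6.78, 10.5 and 22.7 FPKM with PTH and 4.9, 6.32 and 9.99 with YKL-05-099 (-0.76, adjusted p = 0.0156), and Csf1r, the receptor of the macrophage growth factor (-0.26, adjusted p = 0.0344). The Csf1r call was lost without PTH replicate 2, 3 or 4 or YKL-05-099 replicate 2, 4, 6 or 8 (-0.26 to -0.21, adjusted p = 0.0551 to 0.0736). The endothelial genes were the receptors Tek (-0.62, adjusted p = 0.0194) and Flt1 (-0.57, adjusted p = 0.0353). The Flt1 call was lost without PTH replicate 1, 2, 3 or 8 or YKL-05-099 replicate 2, 4, 5 or 6 (-0.56 to -0.47, adjusted p = 0.0565 to 0.0854).

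Few epithelial markers were called. The mean log2 level of 9 proximal tubule S1 and S2 markers was 7.71 to 8.12 with PTH and 7.91 to 8.27 with YKL-05-099, so the labelled tissue carried its defining genes in every library. The 2 called of these 9, both higher with YKL-05-099 (background 2.84%), were Slc34a1 and Gatm (0.33, adjusted p = 0.0494), whose call was lost without any 1 of PTH replicates 1 to 4 or of the 8 YKL-05-099 libraries (0.29 to 0.35, adjusted p = 0.0519 to 0.103), against PTH replicates 5 to 8 alone (0.11, adjusted p = 0.561) and without the urothelium-rich libraries (0.30, adjusted p = 0.104). No marker of the S3 segment, thick ascending limb, distal convoluted tubule, principal cell or podocyte lists was called. The mean log2 level of 6 intercalated cell markers was 4.77 to 4.97 with PTH, 4.49 to 4.83 with YKL-05-099 and 4.78 to 5.18 with vehicle, so the treated groups overlapped only at the edge. Of these 6 markers 1 was called lower (background 3.58%), Foxi1, the master factor of that cell. Foxi1 was at 19.9, 24.1 and 31.4 FPKM with PTH, 8.41, 11.1 and 21.2 with YKL-05-099 and 16.2, 19 and 23.7 with vehicle (-1.01, SE 0.133, adjusted p = 2.18e-05). The other 5 intercalated markers differed by -0.20 to 0.00 and did not pass.

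**Figure D5:**
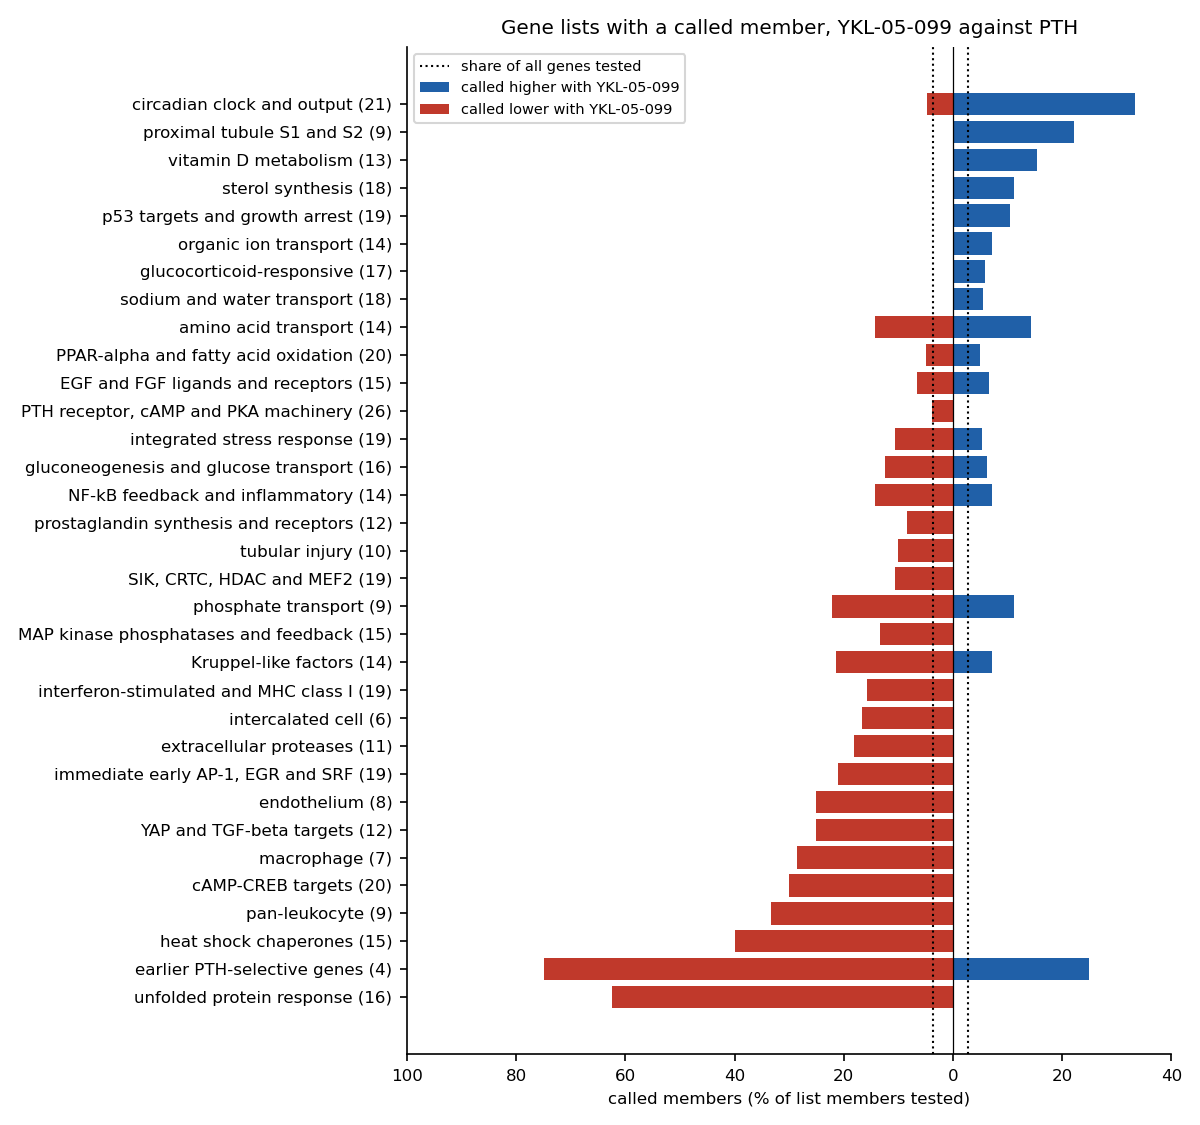
For the gene lists with a called member, share of tested genes called higher (blue) or lower (red) with YKL-05-099 than with PTH in each list, as percent of the list's tested members, with the share over all 13991 genes marked for each direction. Apart from the 4 earlier PTH-selective genes (Tinf2, Trmt61b, Fgl2 and Tsku), which were picked from earlier results on these libraries and whose shares support nothing, the unfolded protein response (10 of 16 lower), heat shock (6 of 15), pan-leukocyte (3 of 9) and CREB target (6 of 20) lists reach furthest on the lower side and the clock list (7 of 21) on the higher side. The other lists were also written with earlier results of these data known, so their shares are descriptions and no independent support.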

How the data were processed

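Whole-kidney RNA was extracted with Trizol and sequenced on a BGISEQ-500. The authors' processing notes name STAR 2.7.2b, RSEM 1.3.0, DESeq2 and the builds mm10 and GRCm38. The deposited table holds 1 FPKM value per gene and library, computed by the authors; its 19426 entries carried Entrez identifiers, of which 99.66% matched RefSeq, and 25 symbols turned into dates were restored. 1 further value column, equal to PTH replicate 3, was not used. No 2 libraries were identical. FPKM are not counts, so limma 3.58.1 in R 4.3.3 was run with an intensity trend on log2(FPKM + 0.1) for the 13991 genes averaging 0.5 FPKM or more, in 1 fit of the 24 libraries as 3 groups, with a Benjamini-Hochberg adjusted p below 0.05 as the call. Log2 differences are on that scale and understate changes of low genes. The sources do not tie each library to its own mouse, and the deposited description states an n of 6 per treatment against 8 libraries, so p-values measure only the spread between these samples, which may be technical. Depth was estimated from the spacing of low values, 79.7 to 89.4% of which lay within 0.2 of a whole number of fragments; counts were not recovered and no count model was run. The script was tested on simulated data.

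The members, gene lists, motifs and tests were chosen with earlier results of these data known. Named genes were Cyp27b1 and Cyp24a1, the 15 highest and 15 lowest log2 differences among called genes at 1 FPKM or more in the higher group (unnamed gene models left out), the 10 smallest adjusted p, up to 4 called genes a list, and the SIK, CRTC and PTH receptor genes, 153 in all. Of the 102 genes named here, 92 follow this rule, and 10 (Rcan1, Hist1h1c, Clk1, Tmem252, Lpin1, Bex1, Calca, Arntl, Per3 and Nr1d1) were chosen after their values were seen; some called list members are not reported here. Promoter windows are RefSeq sequence. Alternatives were other pseudocounts, filters, scalings and fits, a replicate block and leaving out each library; limiting the PTH group to 4 libraries and leaving out 4 urothelium-rich libraries were added after seeing the data.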

Additional observations from a re-analysis of the deposited data

Results flagged for a closer look

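In 14 of 204 groups of 8 libraries checked, 1 library stood apart from the other 7 by Dixon's test at 95%, which chance alone gives in about 1 of 20 groups. 4 of the 14 were YKL-05-099 replicate 1. In that library Sik1 was at 26.2 FPKM (the others at 57.2 to 77.7), G6pc at 172.75 (253.75 to 324.76), Slc20a1 at 13 (26.7 to 33.4) and Slc38a2 at 31 (14.2 to 20.4). The calls of G6pc, Slc20a1 and Slc38a2 held without it.

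YKL-05-099 replicate 6 was highest in Pth1r (170 FPKM, others 138 to 152) and lowest in Fgl2 (0.51, others 1.12 to 1.4) and Sesn1 (8.06, others 9.67 to 11.2). YKL-05-099 replicate 7 was highest in Nr4a3 at 4.38 FPKM (1.27 to 2.25). YKL-05-099 replicate 4 was lowest in Tfap4 at 1.96 FPKM (2.67 to 3.16) and was listed at 0 for Mir3101 (2.69 to 8.2). YKL-05-099 replicate 5 was highest in Rnase6 at 1.5 FPKM (0.14 to 0.4). PTH replicate 4 was lowest in Chordc1 at 22.8 FPKM (31 to 40.5) and highest in Tmem252 at 786 (347 to 498), and PTH replicate 7 was lowest in Spdya at 2.21 (4.86 to 8.14).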

How the results depend on the processing

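The 898 calls (397 higher and 501 lower with YKL-05-099, 18 and 42 past a log2 difference of 1) depended most on which PTH libraries entered. Limiting the PTH group to replicates 1 to 4 gave 2378 calls (946 and 1432, with 36 and 84 past 1), and replicates 5 to 8 gave 622 higher. Leaving out the 4 libraries highest in urothelium markers gave 564 calls, with 278 lower. A fit of the 2 groups alone, with fewer samples, gave 519 (231 and 288). Pseudocounts of 1 and 0.5 FPKM shrink differences of low genes by construction and left 2 and 5 higher and 19 and 21 lower past 1, and a minimum mean of 1 FPKM left 11 higher past 1. Leaving out each library in turn gave 629 (without YKL-05-099 replicate 6) to 1135 calls (without YKL-05-099 replicate 1), 289 to 513 higher and 340 to 689 lower, 12 to 22 and 33 to 47 past 1. The cause was not tested for the other changes.

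The share of calls higher with YKL-05-099 was 44.2%, against 40.3% after median-ratio scaling, 39.8% with PTH replicates 1 to 4, 63.1% with PTH replicates 5 to 8 and 50.7% without the urothelium-rich libraries. After each gene's group mean was taken off, the deviations of same-numbered PTH and YKL-05-099 libraries correlated at -0.185 to 0.0641. 0 of 8 pairs were above 0.1 and 0 of 8 libraries were closest to their own number, so these deviations showed no pairing by number. With the replicate number as a block 760 genes were called. Of 94 named genes called, 59 were called under all 29 alternatives, and none of the 94 turned its direction. Of the 8 named genes not called, Sik3 (-0.137 to 0.326), Vdr (-0.01 to 0.373) and Crtc2 (-0.041 to 0.053) changed sign. Depth limits low genes and was only estimated (median 6587500 fragments a library, error not tested). FPKM leave no counts to test.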

Other observations

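Genes outside the lists above also separated the agents, and those named here were chosen after their values were seen. Hist1h1c, a linker histone, was at 51.4, 67.9 and 83 FPKM (lowest, median and highest) with PTH, 79.1, 114 and 147 with YKL-05-099 and 48.7, 62.9 and 91.8 with vehicle. It was higher with YKL-05-099 than with PTH (0.76, adjusted p = 7.72e-04) and than with vehicle (0.85), and Hist1h1d was higher too (0.24, 0.565 and 1.09 against 0.7, 1.89 and 2.26 FPKM, 1.29, adjusted p = 0.0131), although Hist1h1d was not called without the urothelium-rich libraries (1.10, adjusted p = 0.0854). Clk1, a kinase of splicing factors, was at 86.5, 114 and 137 FPKM with PTH, 52.1, 66.7 and 82.5 with YKL-05-099 and 103 to 127 with vehicle. All YKL-05-099 libraries lay below all PTH and all vehicle libraries (-0.68, adjusted p = 1.46e-04 against PTH).

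Tmem252 was at 347, 429 and 786 FPKM with PTH, 90.2, 229 and 322 with YKL-05-099 and 64.9 to 117 with vehicle (-1.14, adjusted p = 3.94e-04). Lpin1, a phosphatidate phosphatase of lipid synthesis, overlapped at 44.2 to 84.4 with PTH and 21 to 57.9 FPKM with YKL-05-099 (-0.85, adjusted p = 0.0048) and was not called against PTH replicates 1 to 4 alone (-0.61, adjusted p = 0.0619). Both stood above vehicle with each agent. Bex1 (-1.20, adjusted p = 2.19e-04) and Calca, the calcitonin and CGRP gene (-1.42, adjusted p = 0.00304), stood above vehicle with PTH by 1.45 and 1.46, while their YKL-05-099 minus vehicle differences of 0.25 and 0.04 did not pass. The immune genes Rnase6 (0.79, 1.02 and 1.71 against 0.14, 0.27 and 1.5 FPKM, -1.52, adjusted p = 0.00153) and Cd48 (0.86, 1.64 and 2.43 against 0.13, 0.455 and 1 FPKM, -1.44, adjusted p = 0.00451) were lower with YKL-05-099, and the leukocyte markers given in the report moved with them; their part was not tested. Cd48 was not called against PTH replicates 5 to 8 alone (-0.98, adjusted p = 0.112).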
